A study of Homo sapiens with 12 samples.

Results

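Precursor entries of miRNAs that held more normalized counts than their own mature entries were compared between wild-type and 5-LOΔ MM6 cells. In the deposited table without LPS, a precursor was taken when at least 1 mature entry carried its name (case and the arm suffix ignored) and when its mean in either genotype exceeded the sum of those mature entries by more than 1%. The table lists 1231 noncoding RNAs with 236 precursor entries, 187 of which had a mature entry of the same name, and 36 of these 187 (19.3%) passed the threshold. The difference between a precursor and the sum of its mature entries is called its excess. Because the means without LPS chose the 36 precursors, their excess without LPS is given as a description, and the table with LPS holds libraries that the choice did not use.

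The cells were Mono Mac 6 (MM6), a line of human monocytic origin. Clones of this line with a CRISPR/Cas9 disruption of ALOX5, which encodes 5-lipoxygenase (5-LO), are called 5-LOΔ MM6 cells, or 5-LOΔ cells for short. Small RNA was sequenced from 12 libraries in 4 groups, namely 3 wild-type and 3 5-LOΔ libraries without LPS and the same numbers with LPS. Every group had been differentiated with TGF-β at 1 ng/mL plus calcitriol at 50 nM, for 72 h by the labels, and the LPS groups then received 1 µg/mL LPS during 6 h. The labels do not name the clone behind a knockout library, and small RNA reads cannot show whether ALOX5 was disrupted.

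Each table holds 1 mean of normalized counts per genotype over 3 libraries, with no SD and no value of a single library, so no test between the genotypes was run. The means of all entries summed to 10757419 in wild-type and 12142907 in 5-LOΔ cells without LPS. With LPS, the sums were 9680900 and 10165615. The tables were normalized separately, and all comparisons stay within a table. Means of at most 10 could be written as whole reads of 3 libraries in exactly 1 way, which gave the size factors of the libraries, that is, their relative depths. The wild-type libraries without LPS had factors of 1.25, 1.02 and 0.883, and the 5-LOΔ libraries had 1.34, 0.945 and 0.725. The wild-type libraries with LPS had 1.72, 1.07 and 0.665, and the 5-LOΔ libraries with LPS had 1.30, 0.835 and 0.812. All intervals are 95% intervals computed from these depths, and they cover the counting error of reads and not the spread between libraries.

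A miRNA gene is transcribed into a long primary transcript, from which Drosha cuts a hairpin precursor. Dicer then removes the loop of the hairpin and leaves a duplex of a 5p and a 3p arm, and a strand of this duplex is loaded into an Argonaute protein. Several hairpins can lie in the same transcript, and different genes can encode hairpins that yield the same arm. The series was designed around the question whether 5-LO, which is known to bind Dicer, alters these steps.

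The mature sequences behind the largest excesses are shown to let the arms be compared, grouped by shared seed (bases 2 to 8, in capitals). They were taken from the RefSeq annotation of GRCh38.p14, as were all hairpins and arms, and 201 of the 236 precursor entries and 32 of the 36 chosen precursors matched a hairpin there. No hairpin sequence was matched for mir-7-1, mir-30b, mir-3648 and mir-6087.
miR-17-5p: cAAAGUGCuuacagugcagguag
miR-20a-5p: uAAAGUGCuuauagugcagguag
miR-18a-5p: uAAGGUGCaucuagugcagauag
miR-19a-3p: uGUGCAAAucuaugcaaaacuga
miR-19b-3p: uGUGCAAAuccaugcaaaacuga
miR-92a-3p: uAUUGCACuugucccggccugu
miR-15a-5p: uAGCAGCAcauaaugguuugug
miR-16-5p: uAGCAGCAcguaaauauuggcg
let-7f-5p: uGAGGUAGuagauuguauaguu
miR-181a-5p: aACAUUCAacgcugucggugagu
miR-24-3p: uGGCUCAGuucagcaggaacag
miR-23a-3p: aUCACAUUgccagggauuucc

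The hairpins on which the results turn are printed whole, since reads outside their arms (in capitals) or outside the listed arms are what an excess can hold. The first 6 form the miR-17-92 cluster in order of transcription.
MIR17: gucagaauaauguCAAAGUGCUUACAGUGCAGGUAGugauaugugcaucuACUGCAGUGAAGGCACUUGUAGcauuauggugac
MIR18A: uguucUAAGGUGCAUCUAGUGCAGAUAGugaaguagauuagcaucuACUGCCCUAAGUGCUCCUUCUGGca
MIR19A: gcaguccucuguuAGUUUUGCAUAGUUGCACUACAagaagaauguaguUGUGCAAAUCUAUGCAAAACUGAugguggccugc
MIR20A: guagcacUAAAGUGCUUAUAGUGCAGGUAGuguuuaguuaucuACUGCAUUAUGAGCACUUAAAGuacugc
MIR19B1: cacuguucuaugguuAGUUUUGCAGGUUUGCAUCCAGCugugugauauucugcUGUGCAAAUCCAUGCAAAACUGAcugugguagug
MIR92A1: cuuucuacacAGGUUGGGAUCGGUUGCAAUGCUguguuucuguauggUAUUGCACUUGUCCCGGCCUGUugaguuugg
MIR15A: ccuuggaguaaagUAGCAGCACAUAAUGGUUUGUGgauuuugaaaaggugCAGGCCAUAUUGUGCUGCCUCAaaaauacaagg
MIR16-1: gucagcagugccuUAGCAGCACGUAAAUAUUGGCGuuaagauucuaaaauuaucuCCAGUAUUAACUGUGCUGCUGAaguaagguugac
MIR23A: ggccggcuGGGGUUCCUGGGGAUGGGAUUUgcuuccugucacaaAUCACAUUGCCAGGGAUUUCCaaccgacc
MIR1291: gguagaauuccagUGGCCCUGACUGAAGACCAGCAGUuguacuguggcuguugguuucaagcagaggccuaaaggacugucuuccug

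Together, the 36 excesses without LPS came to 24939 in wild-type and 32097 in 5-LOΔ cells, which was 64.5% and 67.4% of the summed precursor means. The log2 ratio of 5-LOΔ to wild-type was 0.36 (0.35 to 0.38). With LPS, all 36 precursors were listed and 34 still had a mature entry of the same name. Their excess summed to 19527 in wild-type and 25047 in 5-LOΔ cells, with a log2 ratio of 0.36 (0.34 to 0.38). The intervals of both ratios treat the members as separate counts, although whether neighbouring hairpins hold the same reads was not tested. Both ratios rest on the scaling of the authors. When the 5-LOΔ means were rescaled to equal sums of all entries other than precursors, every log2 ratio moved by -0.17 without LPS and by -0.07 with LPS. Equal sums of mature entries moved them by -0.15 and by -0.24. The summed excess stayed higher in 5-LOΔ cells under each of these. In cultures measured in bulk, less RNA per cell and fewer cells that make it cannot be told apart.

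Of the 36 precursors, 27 had a higher excess in 5-LOΔ cells without LPS, and 23 did under either rescaling. Among all 174 precursor entries above 0 in both genotypes, 56.9% had a higher mean in 5-LOΔ cells. The 4 that changed sides were mir-17, mir-181a-2, mir-15b and mir-1248. In 25 precursors the excess was above rounding in both genotypes, and among these it was higher in 5-LOΔ cells in 17 and lower in 8. It was at least 1.5-fold higher in 5 and 1.5-fold lower in 1, beside 24.1% and 15.5% of the 174 precursor entries. Nothing is read from these counts, since the same means chose the members. With LPS, the excess was above rounding in both genotypes in 28 precursors, of which 20 were higher in 5-LOΔ cells. After rescaling, 20 and 18 of the 28 were higher, and the precursors that changed sides were mir-142 and mir-16-1. The share of all 165 precursor entries that were higher in 5-LOΔ cells with LPS was 65.5%. By 1.5-fold, the excess with LPS was higher in 8 members and lower in 4, beside 25.5% and 12.1% of the 165 entries. The median log2 ratio of the precursor means with LPS was 0.33 for the members and 0.28 for all precursor entries, and without LPS it was 0.07 and 0.09.

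**Figure D1:**
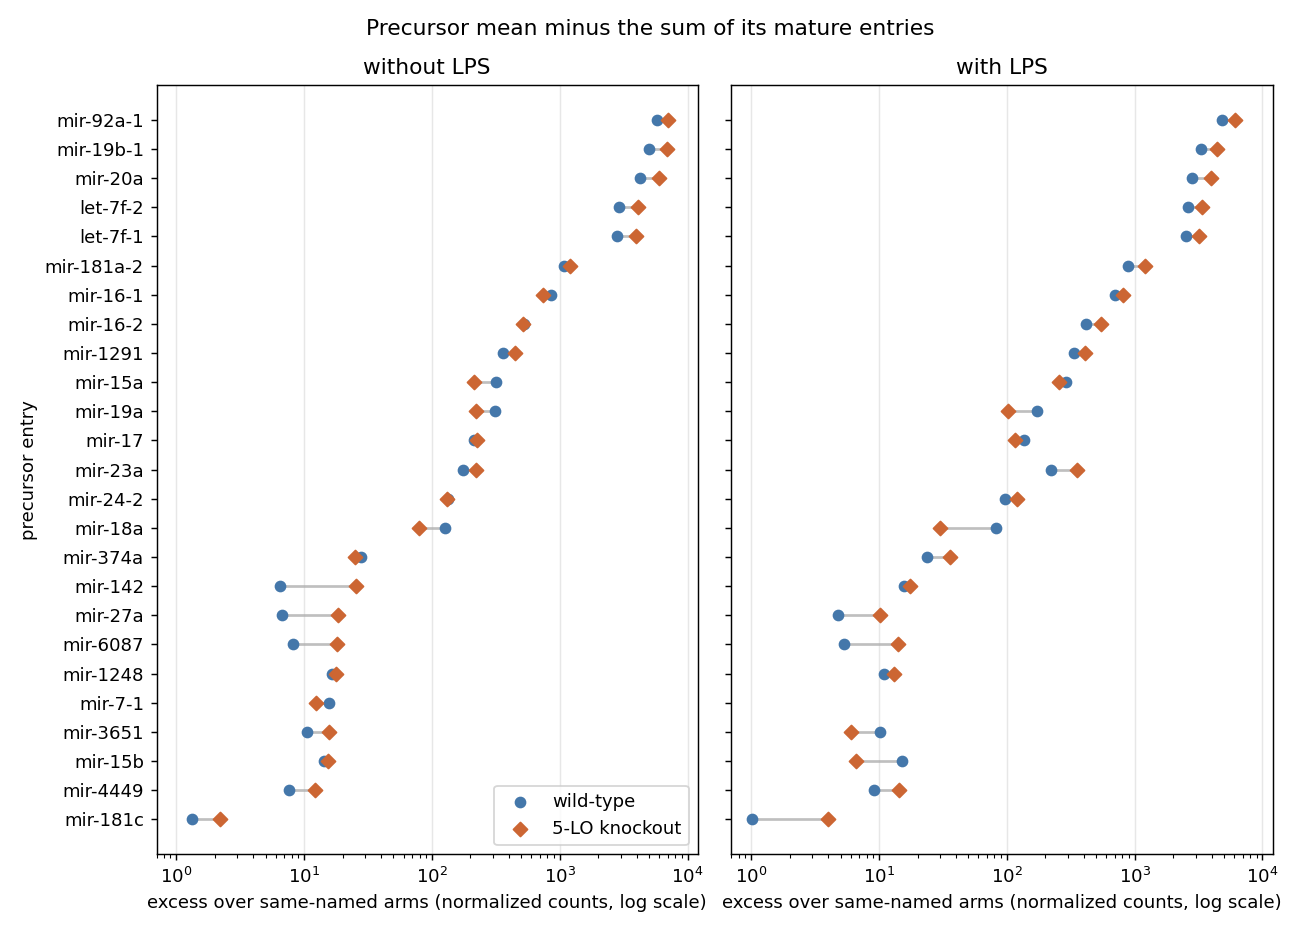
Excess of the precursor mean over its same-named mature entries (normalized counts, log axis) in wild-type (circles) and 5-LOΔ cells (diamonds), for the 25 precursors with an excess above rounding in both genotypes without LPS. Symbols are means of 3 libraries, and 17 of the 25 were higher in 5-LOΔ cells without LPS, of which mir-17, mir-181a-2, mir-15b and mir-1248 were lower after either rescaling.

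For 9 of the 36 precursors, the excess held an arm that several hairpins share and that the table lists without a copy number. These were let-7f-1, let-7f-2, mir-7-1, mir-16-1, mir-16-2, mir-19b-1, mir-24-2, mir-92a-1 and mir-181a-2. Dividing each shared arm equally among its hairpins accounted for 13287 of the summed excess in wild-type and 16989 in 5-LOΔ cells. What was left after this is called the remaining excess. With LPS the shared arms accounted for 11421 and 14761. The remaining excess exceeded 1% in 31 precursors and summed to 11706 in wild-type and 15202 in 5-LOΔ cells, a log2 ratio of 0.38 (0.36 to 0.40). The interval treats the members as separate counts, although whether neighbouring hairpins hold the same reads was not tested. The sum also includes let-7f-2 and mir-92a-1, whose remaining excess hangs on the equal split, without the shortfalls of let-7f-1 and mir-92a-2. With LPS, the remaining excess exceeded 1% in 24 precursors and summed to 8157 and 10374. Counted in this way, 15 of 20 members with a remaining excess above rounding in both genotypes were higher in 5-LOΔ cells without LPS, beside 56.9% of all precursor entries, and mir-15b, mir-17, mir-92a-1 and mir-1248 among the 15 turned lower under either rescaling. Nothing is read from this count either, since the means without LPS chose the members. With LPS, 14 of 24 (58.3%) were higher and 10 were lower, beside 65.5% of all precursor entries, and mir-142 among the 14 turned lower when mature sums were made equal.

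In 5 precursors the shared arm left no remaining excess above 1%. The precursor of mir-16-2, a second source of miR-16-5p beside mir-16-1, had an excess of 529.8 in wild-type MM6 cells, and its part of miR-16-5p was 529.8. For mir-181a-2, whose arm miR-181a-5p is known from lymphocyte development, the excess was 1086 in wild-type and 1193 in 5-LOΔ cells against shared parts of 1087 and 1194. The excess of mir-24-2 was 132 in wild-type and 131 in 5-LOΔ cells, and the mir-24-1 precursor, which has no mature entry of its own, was listed at 132 and 130.2. A shared arm also covered mir-7-1, with an excess of 15.7 in wild-type MM6 cells beside 15.8 for its part of miR-7-5p over 3 hairpins.

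The let-7f hairpins encode the same mature arm, a let-7 miRNA that represses oncogenes such as RAS. Their excess was large in both copies. For let-7f-2 it was 2924 in wild-type and 4120 in 5-LOΔ cells, and with LPS it was 2601 and 3382. For let-7f-1 it was 2822 and 3940 without LPS and 2509 and 3212 with LPS. An equal split of let-7f-5p left 49.5 and 88.9 on let-7f-2 and took -52.5 and -91.6 from let-7f-1, so that both copies together were left with -3.02 in wild-type and -2.77 in 5-LOΔ cells. The remaining excess of let-7f-2 was thus close in size to the shortfall of let-7f-1, and it is given no interval. The other let-7 precursors were not members. Of the 12 let-7 family precursors listed, 9 had a mature entry of the same name, and 7 of these lay within 1% of their arms. Examples were let-7g, with a precursor mean of 1314 in wild-type and 1748 in 5-LOΔ cells, and let-7i, at 1625 and 2516.

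**Figure D2:**
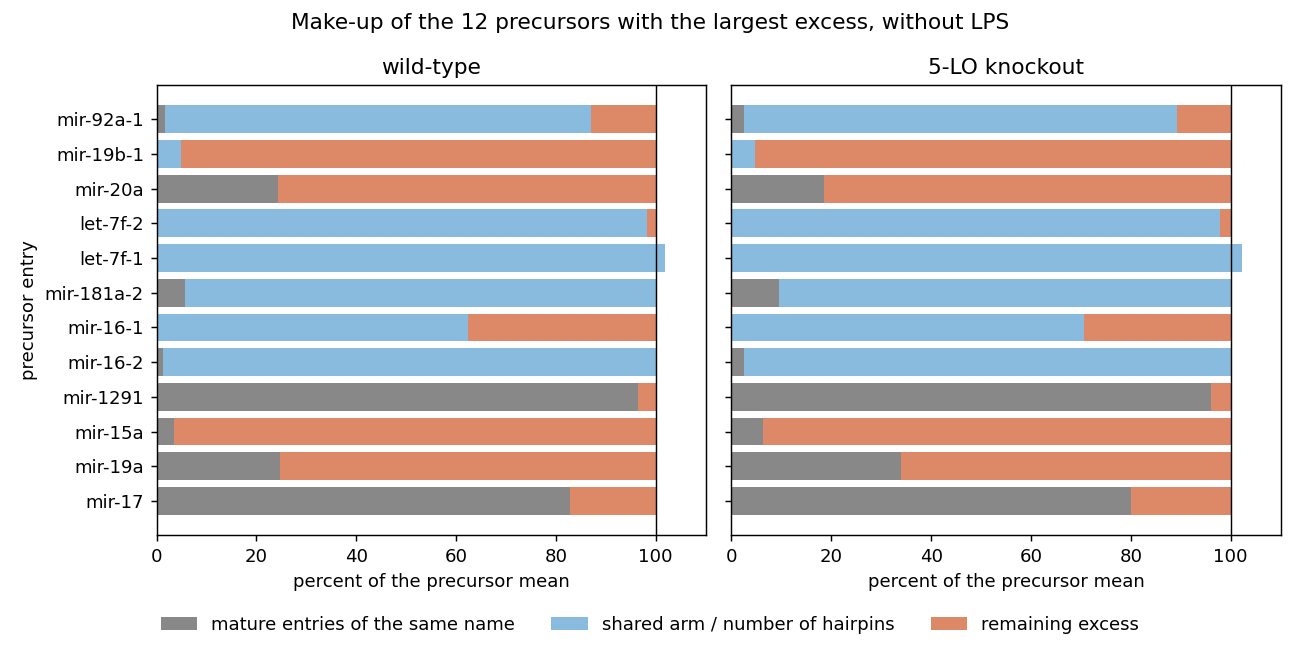
Percent of each precursor mean made up of mature entries of the same name (grey), of shared arms divided by their number of hairpins (blue) and of the remaining excess (orange), for the 12 precursors with the largest excess without LPS, in wild-type (left) and 5-LOΔ cells (right). The remaining excess filled 95.3% of mir-19b-1 and 81.5% of mir-20a in 5-LOΔ cells, and the bar of let-7f-1 passes 100% because the equal split gave it more of let-7f-5p than its precursor held.

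Most of the remaining excess came from the miR-17-92 cluster, a polycistronic transcript known to drive proliferation in blood cells and lymphomas. Its 6 hairpins lie in an exon of MIR17HG within 787 bases at chr13:92002859-92003645 (GRCh37, forward strand), placed there by exact match. All 6 were members. The hairpins mir-20a, mir-19b-1 and mir-92a-1 together held 83.2% of the summed remaining excess in wild-type and 87.6% in 5-LOΔ cells, and 79.5% and 83.3% with LPS.

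The largest remaining excesses stood at mir-20a and mir-19b-1. The mir-20a precursor, whose miR-20a-5p shares a seed with miR-17-5p, had a mean of 5617 in wild-type and 7355 in 5-LOΔ cells. Its mature arms came to 1370 and 1358, which left an excess of 4247 and 5997. The excess was 1.41-fold higher in 5-LOΔ cells (log2 0.50, 0.46 to 0.53), while the log2 ratio of the arms was -0.01. With LPS the excess was 2827 in wild-type and 3936 in 5-LOΔ cells (log2 0.48, 0.44 to 0.52), beside 1114 and 1009 for the arms. A ratio between the excess and the arms of the same precursor does not depend on the scaling of a table. For mir-20a this ratio was higher in 5-LOΔ cells by 0.51 log2 (0.44 to 0.58) without LPS and by 0.62 (0.54 to 0.70) with LPS.

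For mir-19b-1, the next hairpin downstream, the arms were nearly absent from the precursor count. Its own 5p arm was listed at 0.755 in wild-type and 0.705 in 5-LOΔ cells, and its part of miR-19b-3p was 248 and 321. The remaining excess was 4730 in wild-type and 6551 in 5-LOΔ cells (log2 0.47, 0.44 to 0.50). With LPS it was 3136 and 4191 (log2 0.42, 0.38 to 0.46). The other copy, mir-19b-2, had no such surplus, with a precursor mean of 248 in wild-type and 321 in 5-LOΔ cells. In both tables the log2 ratio of mir-19b-1 stood close to that of mir-20a. The difference was -0.03 (-0.07 to 0.02) without LPS and -0.06 (-0.12 to -0.0023) with LPS. These intervals take the counts of both hairpins as independent, and whether the hairpins share reads was not tested. The arms differed more between the hairpins. Those of mir-19b-1, its part of miR-19b-3p included, had log2 ratios of 0.37 without LPS and 0.05 with LPS. For the arms of mir-20a these were -0.01 and -0.14. The excess at both hairpins stayed higher in 5-LOΔ cells under either rescaling.

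The remaining excess of mir-19b-1 and that of mir-20a were also close in size. The difference was 483 for wild-type and 554 for 5-LOΔ cells without LPS. With LPS the order of the genotypes turned, with 309 for wild-type and 255 for 5-LOΔ cells. The stretch between their facing arms is shown because 56 of its 77 bases belong to neither hairpin (chr13:92003384-92003460, GRCh37, forward strand), with the ends of both annotated hairpins in capitals.
MIR20A to MIR19B1: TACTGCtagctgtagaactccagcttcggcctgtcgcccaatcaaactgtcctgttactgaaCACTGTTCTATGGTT
Whether reads of this stretch entered both precursor counts was not tested, since the tables give no read positions.

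The last hairpin, mir-92a-1, had the largest excess of all 36 before shared arms were taken off. It was 5753 in wild-type and 7007 in 5-LOΔ cells, and 4823 and 6065 with LPS. After its part of miR-92a-3p, 4995 in wild-type and 6231 in 5-LOΔ cells, 758 and 776 were left without LPS. With LPS, 523 and 514 were left. The log2 ratio of the remaining excess was 0.03 without LPS and -0.02 with LPS. It is given no interval because it hangs on the assumed equal split. On the other copy, mir-92a-2, the equal split left -254 in wild-type and -210.2 in 5-LOΔ cells. Added up, both copies were left with 503 and 566 without LPS. With LPS they were left with 320 in wild-type and 280.3 in 5-LOΔ cells. The ratio of mir-92a-1 without LPS turned negative under either rescaling.

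The 3 hairpins at the upstream end held far less. For mir-18a, which stands apart in seed, the excess was 128 in wild-type and 79.2 in 5-LOΔ cells (log2 -0.69, -0.92 to -0.45). With LPS it was 82.3 and 29.9 (log2 -1.46, -1.82 to -1.10). For mir-19a, which shares its seed with miR-19b-3p, the excess was 313 in wild-type and 222 in 5-LOΔ cells (log2 -0.49, -0.64 to -0.35). With LPS it was 172 and 102 (log2 -0.76, -0.97 to -0.55). Both were lower in 5-LOΔ cells in each table and under each rescaling. Relative to their own arms, mir-19a was lower by -0.65 log2 (-0.91 to -0.38) without LPS and -0.40 (-0.74 to -0.06) with LPS. Measured in the same way, mir-18a was lower by -0.31 (-0.62 to -0.01) and -1.01 (-1.44 to -0.58).

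For mir-17, the first hairpin of the cluster, the excess was 212 in wild-type and 226 in 5-LOΔ cells, with an interval of the log2 ratio that included 0 (0.09, -0.06 to 0.25). With LPS it was 137 and 115 (log2 -0.25, -0.46 to -0.04). Its direction without LPS turned under either rescaling. Relative to its own arms, which the scaling does not touch, the mir-17 excess was higher in 5-LOΔ cells by 0.27 log2 (0.09 to 0.44) without LPS, on the same side as mir-20a. With LPS this value was -0.02 (-0.25 to 0.20). Set against mir-20a, whose ratio cancels the scaling, the log2 ratio of the remaining excess was lower by -0.40 (-0.57 to -0.24) for mir-17, by -1.18 (-1.42 to -0.95) for mir-18a and by -0.99 (-1.14 to -0.84) for mir-19a. With LPS the same differences were -0.73 (-0.94 to -0.52), -1.94 (-2.30 to -1.58) and -1.24 (-1.45 to -1.03). From mir-19a to mir-20a, the hairpins being 92 bases apart, the remaining excess rose 13.6-fold in wild-type and 27.0-fold in 5-LOΔ cells without LPS. With LPS this step was 16.4-fold and 38.7-fold.

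**Figure D3:**
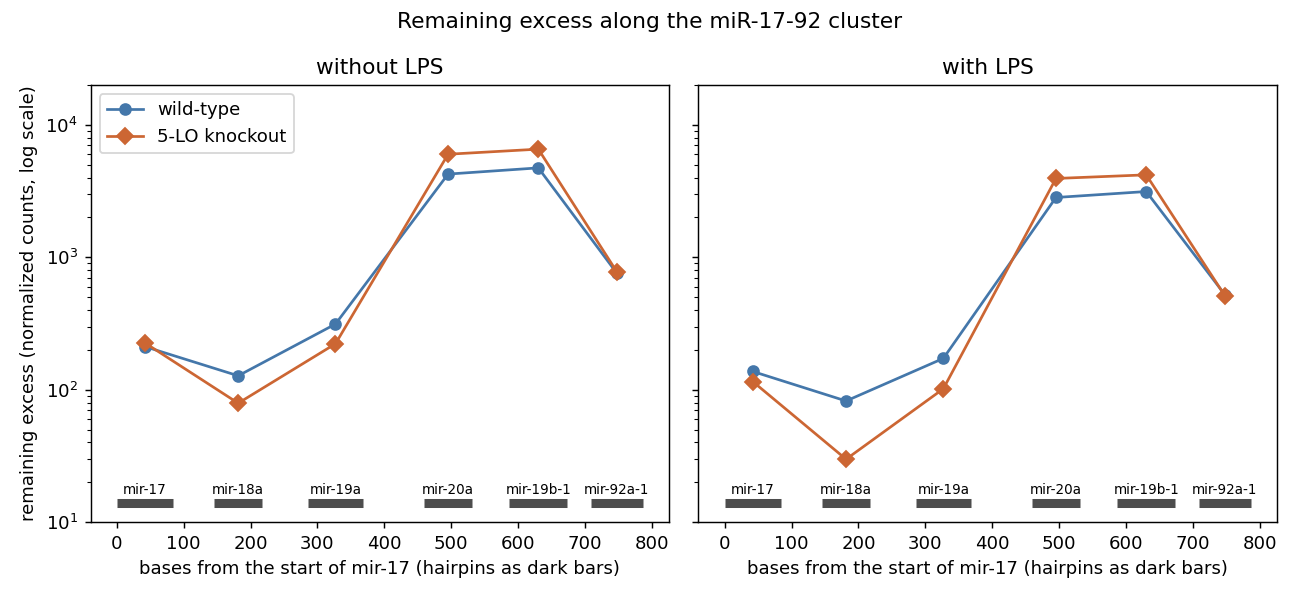
Remaining excess (normalized counts, log axis) at the 6 hairpins of the miR-17-92 cluster against the distance in bases from the start of mir-17, without LPS (left) and with LPS (right), with circles for wild-type, diamonds for 5-LOΔ cells and dark bars for the hairpins. The curves cross between mir-19a, lower in 5-LOΔ cells, and mir-20a, higher in 5-LOΔ cells, in both tables and under either rescaling, while mir-17 and mir-92a-1 without LPS turned lower after rescaling.

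A second pair of neighbouring hairpins was mir-15a and mir-16-1, tumor suppressors of B cell leukemia that lie within DLEU2. They are 57 bases apart at chr13:50623109-50623337 (GRCh37, reverse strand), and their 5p arms share a seed. The mir-15a excess was 316 in wild-type and 214 in 5-LOΔ cells (log2 -0.56, -0.71 to -0.42), while its arms came to 11.7 and 14.5. The remaining excess of mir-16-1, after its part of miR-16-5p, was 319 in wild-type and 217 in 5-LOΔ cells (log2 -0.55, -0.70 to -0.41). These values differed between the hairpins by 0.718% in wild-type and 1.39% in 5-LOΔ cells.

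With LPS, mir-15a had an excess of 289 in wild-type and 255 in 5-LOΔ cells (log2 -0.18, -0.32 to -0.03). The remaining excess of mir-16-1 was 291 and 258 (log2 -0.17, -0.31 to -0.03). Again the values of the pair lay within 0.707% and 1.19% of each other. Both stayed lower in 5-LOΔ cells in each table and under each rescaling, whereas the whole excess of mir-16-1 with LPS, 705 in wild-type and 806 in 5-LOΔ cells, was higher and turned lower when mature sums were made equal. Relative to its own arms, the mir-15a excess was lower in 5-LOΔ cells by -0.87 log2 (-1.53 to -0.21) without LPS, and by -0.12 (-0.80 to 0.55) with LPS. The stretch between the facing arms is shown for the same reason as before (chr13:50623185-50623265, GRCh37, reverse strand). Of its 81 bases, 57 lie in neither hairpin, and capitals mark the ends of the annotated hairpins.
MIR15A to MIR16-1: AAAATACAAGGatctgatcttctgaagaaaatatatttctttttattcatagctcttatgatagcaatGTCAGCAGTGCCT

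The paralogous pair mir-15b and mir-16-2 on chromosome 3, 59 bases apart in an intron of SMC4, was different. The mir-15b excess was 14.4 in wild-type and 15.4 in 5-LOΔ cells, with a log2 ratio of 0.09 (-0.51 to 0.70) that turned negative under either rescaling. Relative to its own arms, it was higher in 5-LOΔ cells by 0.67 log2 (0.0052 to 1.34) without LPS. With LPS the mir-15b excess was 15.1 and 6.64 (log2 -1.18, -1.96 to -0.40). No remaining excess stood beside it on mir-16-2.

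The hairpins of mir-23a, mir-27a and mir-24-2 lie within 373 bases in MIR23AHG on chromosome 19 and are known from myeloid and endothelial cells. All 3 were members. The precursor of mir-23a was listed at 201 in wild-type and 248 in 5-LOΔ cells and its 3p arm at 26.6 and 25.6, while the 5p arm of the RefSeq hairpin had no entry. The excess of 174 and 222 (log2 0.35, 0.19 to 0.52) can thus hold reads of an arm that was not listed, in addition to reads outside the arms. With LPS it was 221 in wild-type and 351 in 5-LOΔ cells (log2 0.67, 0.53 to 0.81). The mir-27a excess was small, at 6.74 in wild-type and 18.3 in 5-LOΔ cells (log2 1.44, 0.71 to 2.18), and at 4.77 and 10.1 with LPS (log2 1.09, 0.17 to 2.01). Both were higher in 5-LOΔ cells in each table and under each rescaling.

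Some hairpins overlap snoRNA genes, whose RNAs guide the modification of other RNAs. Of 9 entries on a list of such hairpins, 7 were listed and 3 were members. The mir-1291 hairpin overlaps SNORA34, an H/ACA snoRNA. Its precursor was listed at 9992 in wild-type and 11739 in 5-LOΔ cells, which was 99.9% of the SNORA34 entry in either genotype, and its mature entry at 9633 and 11289. The excess of 359 and 450.6 was 3.73% and 3.99% of the mature entry (log2 0.33, 0.21 to 0.44). With LPS it was 336 in wild-type and 408 in 5-LOΔ cells (log2 0.28, 0.16 to 0.40). Relative to the mature entry it was 0.10 log2 higher (-0.02 to 0.22) without LPS and 0.15 (0.02 to 0.27) with LPS.

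The other members of this list were mir-1248, over SNORA81, and mir-3651, over SNORA84. For mir-1248 the precursor made up 93.8% of the SNORA81 entry in wild-type and 94.0% in 5-LOΔ cells, with an excess of 16.6 and 17.9. With LPS the excess was 10.9 and 13.2. For mir-3651 the precursor made up 98.8% and 97.4% of the SNORA84 entry, with an excess of 10.5 in wild-type and 15.5 in 5-LOΔ cells, and of 10.3 and 6.04 with LPS. The intervals of their log2 ratios included 0 in both tables. In 3 listed hairpins that were not members the precursor held less than its arms. Of these, mir-3607 had the highest mean, 22225 in wild-type and 20323 in 5-LOΔ cells against arm sums of 44423 and 40611.

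Smaller excesses were found at precursors outside these groups. The excess of mir-142, a hairpin that marks blood cells, was 6.50 in wild-type and 25.7 in 5-LOΔ cells (log2 1.98, 1.27 to 2.70), beside arms of 421 and 490. With LPS the values lay closer together, 15.7 and 17.6 (log2 0.16, -0.41 to 0.74), and this ratio turned negative when mature sums were made equal. The difference between the tables was not tested. For mir-374a the excess was 28.1 in wild-type and 24.9 in 5-LOΔ cells (log2 -0.18, -0.63 to 0.28), and 23.7 and 35.8 with LPS (log2 0.59, 0.16 to 1.03). The mir-6087 excess was 8.15 in wild-type and 18.2 in 5-LOΔ cells (log2 1.16, 0.47 to 1.85), and its mature entry was higher too, with a log2 ratio of 0.81. With LPS the mir-6087 excess was 5.36 and 14.1. The excess of mir-4449 was 7.67 and 12.1 without LPS and 9.21 and 14.2 with LPS, with intervals of the log2 ratio that included 0. Members named here other than the 12 with the largest excess, the hairpins on the lists and those near the threshold were chosen with their values already seen, as was mir-92a-2.

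**Figure D4:**
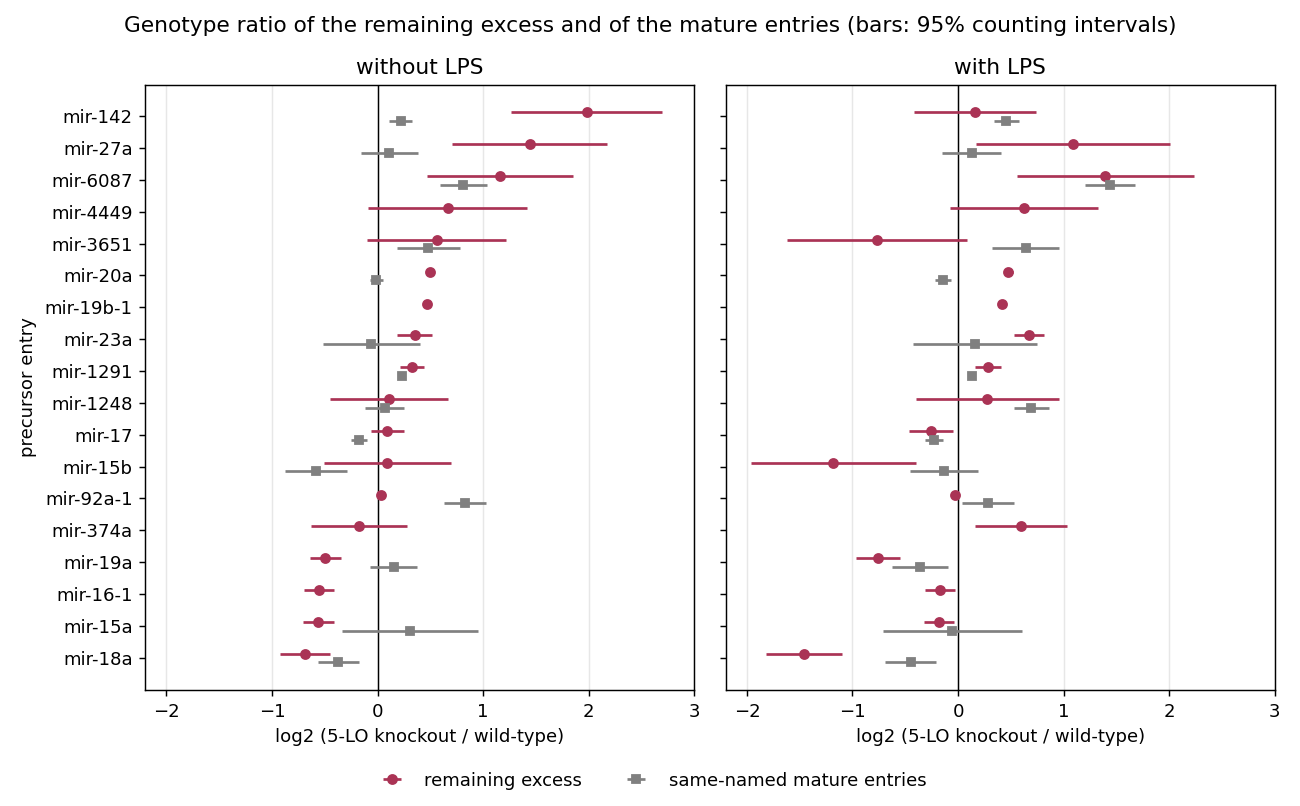
Log2 ratio of 5-LOΔ to wild-type MM6 cells for the remaining excess (red circles) and for the mature entries of the same name (grey squares, where both means are at least 10), without LPS (left) and with LPS (right), for 18 precursors with a remaining excess of at least 10 in a genotype (let-7f-2 left out), with bars for 95% counting intervals except at the remaining excess of mir-92a-1. At mir-20a the excess lay above the arms in both tables, while mir-17, mir-92a-1, mir-15b and mir-1248 without LPS and mir-142 with LPS changed sides of 0 with the scaling.

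For 11 members the excess rested on 1 to 3 reads of a single library, recovered from the mean, while the other genotype had none within rounding. In 10 of them the reads came from a 5-LOΔ library, with an excess of 0.353 to 1.38. These were mir-30b, mir-33a, mir-147b, mir-301a, mir-361, mir-374b, mir-454, mir-503, mir-3648 and mir-3654. The excess of mir-296 came from 2 reads of a wild-type library. They entered the set through this genotype and count among its directions without LPS for that reason. For mir-33a, mir-296, mir-374b and mir-503, an arm of the RefSeq hairpin had no entry, so their excess can also hold reads of that arm. The entry mir-3648, known as a fragment of ribosomal RNA, was the only member on a list of 17 entries reported as fragments of tRNA, vault RNA, Y RNA or rRNA, 3 of which were listed. The Dicer-independent mir-451 was not listed.

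The lowest members by percent were mir-181c and mir-301a. For mir-181c the excess was 1.33 in wild-type and 2.20 in 5-LOΔ cells, 0.787% and 1.16% of its arms. The wild-type value was recovered as 5 reads of a single library, with none from the others. The place of mir-181c among the members at least 1.5-fold higher without LPS hangs on that library. The excess of mir-301a was 1.44% of its arms in 5-LOΔ cells. Just outside stood mir-146a at 0.495% in 5-LOΔ cells, mir-28 at 0.429% in wild-type MM6 cells and mir-3653 at 0.315% in wild-type MM6 cells. Among the 151 precursors that were not members, 118 equaled their arms within 0.01% in both genotypes, 29 fell below them in a genotype and 4 lay above by at most 1%. Precursors of the miR-99b, let-7e and miR-125a cluster, on which the study centers, were among the 118. Their means were 40.6 in wild-type and 8.63 in 5-LOΔ cells for mir-99b, 198 and 71.2 for let-7e and 46.8 and 18.0 for mir-125a.

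In the table with LPS, 28 of the 36 members again exceeded their arms by more than 1%. Of the other 8, mir-7-1 and mir-3648 had no mature entry of the same name, mir-30b, mir-296, mir-301a, mir-361 and mir-454 equaled their arms, and mir-503 lay below them. Applied to the table with LPS, the same rule takes 38 of 171 precursors (22.2%), including these 28. A remaining excess above rounding in both genotypes of both tables was found in 20 members. It was higher in 5-LOΔ cells in both tables in 11 of these (let-7f-2 included, whose value hangs on the equal split), lower in both in 4 (mir-15a, mir-16-1, mir-18a and mir-19a) and on opposite sides in mir-15b, mir-17, mir-92a-1, mir-374a and mir-3651. Among the 158 precursor entries above 0 in both genotypes of both tables, 49.4% had higher means in 5-LOΔ cells in both tables and 22.8% had lower means in both, so that the counts of 11 and 4 lay near these shares. Of the last group of members, mir-15b, mir-17 and mir-92a-1 were lower in both tables after either rescaling. Among the 11, mir-1248 turned lower without LPS under either rescaling, and mir-142 turned lower with LPS when mature sums were made equal.

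The distance to other hairpins was not used in the choice. Of 32 members placed on GRCh37, 15 (46.9%) had another hairpin within 100 bases, against 4 of 124 (3.23%) of the matched precursors that were not members. Among the 18 placed members with a remaining excess of at least 10, there were 11 (61.1%). Hairpins of a cluster share a transcript and are not independent of each other, and no test was run. The loop between the arms was of like length, with a median of 15 bases in members and 16 in the others.

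Markers of the cell line were checked in the mature entries. All 5 miRNAs on a monocytic and haematopoietic list were present, with a sum of 4583 in wild-type and 6697 in 5-LOΔ cells without LPS and 5279 and 6272 with LPS. The most abundant of them was miR-21, at 2561 in wild-type and 3957 in 5-LOΔ cells without LPS. The myeloid miR-223 was lower in 5-LOΔ cells in both tables and under either rescaling, at 174 in wild-type and 152 in 5-LOΔ cells without LPS and at 123 and 105 with LPS. Of 14 markers of other cell types, 3 were listed without LPS, with a sum of 21.3 in wild-type and 43.5 in 5-LOΔ cells, mostly miR-9 at 17.0 and 42.3. With LPS 4 were listed, with sums of 22.7 and 24.6. The markers miR-122, miR-1, miR-133a, miR-206, miR-124, miR-141, miR-205, miR-451, miR-144 and miR-150 were in neither table. The part of these differences in the excess was not tested.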

How the data were processed

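The authors sequenced small RNA of 12 libraries, trimmed the adapters and annotated and normalized the reads with omiRas against the human genome. The unit of the deposited columns is a signal, the mean of normalized counts of 3 libraries per genotype. The deposited fold change, p-value and FDR columns describe the authors' own comparison and were not used. A planned comparison over libraries could not be fitted to means, so ratios of means are given without a pseudocount. Size factors were recovered from means of at most 10 (378 wild-type and 439 knockout means without LPS, 361 and 352 with LPS) and tested on simulated data. Counting variances follow from them. Shared arms come from RefSeq, and each was divided equally by its number of hairpins. Named with values by rule were the 12 members with the largest excess, members at the threshold, the miR-99b cluster, the let-7 family and members on lists of snoRNA, tRNA, vault RNA, Y RNA and rRNA hairpins and of family copies. Members and lists were chosen with earlier results of these data known. Alternatives were other thresholds, family-name matching, a minimum mean of 10, a pseudocount of 1 and rescaling. Dividing shared arms and rescaling single members were chosen after the data were seen. Computations used scipy 1.17.1, pandas 2.3.3 and numpy 2.4.6 under Python 3.11.15, and plots used matplotlib 3.10.9.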

Additional observations from a re-analysis of the deposited data

How the results depend on the processing

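Without LPS, the log2 ratio of the summed excess (0.36) was 0.42 when arms of the family name were also matched (28 members left), 0.19 and 0.22 when 5-LOΔ means were rescaled to equal sums of all entries other than precursors and of mature entries, and 0.39 without mir-92a-1. With LPS (0.36), it was 0.39 with the family name (27 members), 0.29 and 0.12 after the rescalings. The rescalings act by their construction, and for the others the cause was not tested. With the family name, 13 of 21 members were higher in 5-LOΔ cells with LPS, where 20 of 28 had been, and the cause was not tested. Each other alternative for these sums and counts, 26 in all, stayed within its counting interval or within 1.5 times the count. The number of members ranged from 24, with the excess required in both genotypes, to 40, with a threshold of 0.1%. Of the alternatives for single members, 78 stayed within their interval and 27 moved, with the flips named in the text. Leaving out a library was run only for 4 members with LPS, whose single reads were recovered in 1 way in both genotypes. Without LPS they were recovered in at most 1 genotype of a member, as in wild-type cells for mir-4449 and mir-181c. Such recovery was possible only at low means. The log2 ratio ranged from 2.70 to 3.87 for mir-147b and from 1.14 to 2.31 for mir-33a. For mir-3654 it ranged from -0.86 to 0.31 and for mir-374b from -0.91 to 0.26. For mir-33a, mir-3654 and mir-374b, only libraries without reads of the excess were left out, so the ratio moved by a fixed step. The same held for the wild-type libraries of mir-147b. Leaving out the library that held all reads of a genotype gives no ratio. The ranges thus do not measure how far these ratios rest on single libraries. For the summed excess no library was left out. No paired analysis was possible because the deposited means carry no replicate numbers, which the labels do. Remaining excess under about 10 rests on few reads, and unlisted arms, read positions and how reads of several hairpins were divided are not in the tables.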
